A study of Mus musculus with 36 samples.

Results

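In the atria of a mouse model of myotonic dystrophy type 1 (DM1), 629 of the 55291 genes in the expression table differed between mice whose expanded repeat RNA had been turned off and mice in which it stayed on, and 182 of those 629 (28.9%) were members of the set described here, because the combined MBNL1 and MBNL2 vectors left them at or near the level of +dox mice without a vector, or beyond it. The members were chosen by their atrial TPM values (a level scaled for transcript length and for library size) in 3 of the 6 cohorts. A gene had to change by at least 0.58 in mean log2(TPM + 1) from the +dox to the +/–dox cohort, with no overlap between the libraries of the cohorts and a mean of at least 1 TPM in the higher cohort. It was kept if the MBNL1+MBNL2 mean had moved by less than 15% of that change, which is called its share below. The set holds 55 genes that were higher and 127 that were lower in +/–dox than in +dox atria, and 447 other genes met the withdrawal criteria with a larger share.

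All mice were CUG960 animals, homozygous for TREDT960I and hemizygous for MHCrtTA, so that doxycycline (dox) switches on the repeat transgene where the alpha myosin heavy chain promoter drives the activator, in heart muscle cells. The +dox cohort had dox from postnatal day 1 to the end at 21 weeks of age, the –dox cohort had none, and the +/–dox cohort was returned to normal chow at 9 weeks. In the vector cohorts dox was kept on, and at 9 weeks AAV9 carrying 3XFLAG-MBNL1 (MBNL1), 3XMYC-MBNL2 (MBNL2) or the pair (MBNL1+MBNL2) was injected into the tail vein. Atria and left ventricle of 3 mice per cohort were sequenced, giving 36 libraries.

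Expanded CUG repeat RNA folds into hairpins that hold muscleblind-like (MBNL) proteins in nuclear foci, which takes these RNA-binding proteins away from their targets in splicing, RNA localization and decay. In the heart, DM1 is known for slowed conduction and arrhythmia, in the atria as well as in the ventricles. Turning the repeat RNA off and supplying extra MBNL are thus different ways to act on the same RNA-protein interaction. The genes described here are those with the lowest shares in the MBNL1+MBNL2 cohort, under the limit of the rule. They are not the only genes on which the treatments differed, since the median share of the other withdrawal genes was 43.3% in that cohort.

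The total of the expected counts ran from 55.03 to 85.8 M in the 18 atrial libraries and from 57.8 to 97.1 M in the 18 ventricular ones, and each replicate pair differed by more than sampling noise. The names of the libraries fall into sets 53 and 56. In the MBNL1+MBNL2 cohort all 3 libraries belong to set 56 and none has Xist above 1 TPM, whereas each other cohort has 2 libraries of set 53 and, as replicate 3, 1 of set 56 with Xist. Library set, sex and the combined vectors therefore cannot be told apart in the choice of members. The same holds for comparisons that use the MBNL1+MBNL2 ventricles. With set 56 alone, which leaves 1 +dox and 1 +/–dox library and uses no library beyond those of the rule, 91 of the 182 members met the rule, and 156 had a share under 15%. This does not separate library set from the vectors. The ventricular MBNL1 library of replicate 1 stood apart, with 16810 genes above 0 TPM against 20537 to 23623 in the other ventricular libraries, and counts without it are given with the ventricular results.

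Among the members the median share was 0.384% in the MBNL1+MBNL2 cohort, which the rule fixed to be low. The same share was 13.5% in the MBNL1 and 5.83% in the MBNL2 cohort, and 93.4% in the –dox cohort. For the other 447 withdrawal genes these medians were 43.3%, 41.7%, 23.7% and 98.5%. All of these shares use the same +dox libraries and are given as a description. A share under 15% was found for 93 members in the MBNL1 cohort and for 130 in the MBNL2 cohort, and 72 members were under it in all 3 vector cohorts. At the other end, 15 members passed 50% with MBNL1 and 3 with MBNL2. The MBNL1+MBNL2 libraries overlapped the +dox libraries for 50 of the 55 higher and 120 of the 127 lower members, and lay wholly beyond them, away from the withdrawal level, for 4 and 5. Because the rule kept genes whose MBNL1+MBNL2 mean stayed near the +dox mean, such overlap was favoured by the choice. These counts describe the set and are no test of it.

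**Figure D1:**
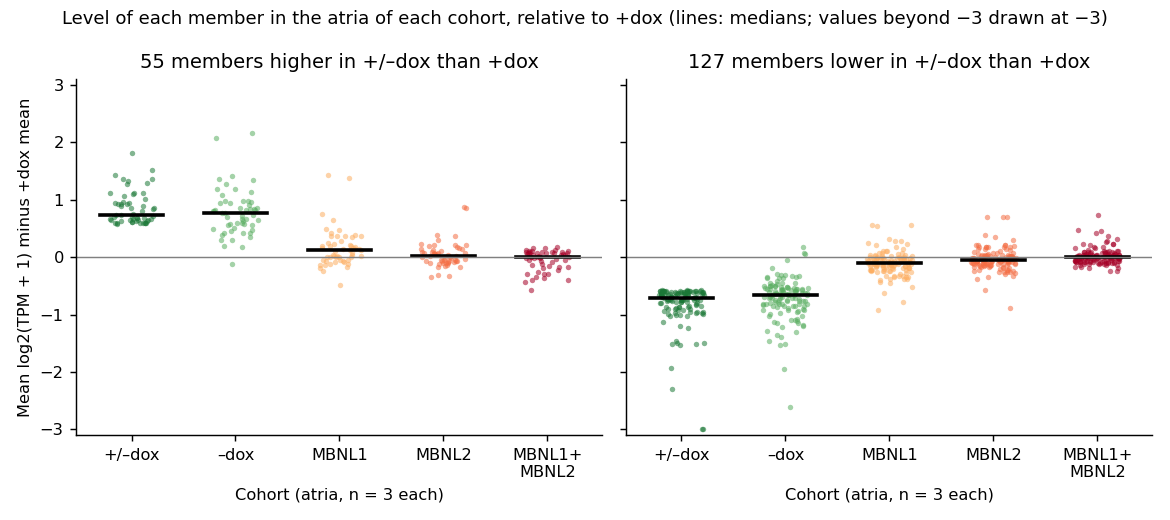
Each point is a member, with its mean log2(TPM + 1) in the atria of a cohort minus the +dox mean on the y axis, and black lines mark medians over the 55 higher and 127 lower members; values beyond -3 are drawn at -3. The +/–dox and MBNL1+MBNL2 columns were used to choose the genes, while the –dox column lies at the withdrawal level and the MBNL1 and MBNL2 columns lie near 0.

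The –dox, MBNL1 and MBNL2 atria took no part in the choice of members, and they are balanced for library set and Xist. These 9 libraries therefore served as the test of whether single vectors also left the members apart from hearts without repeat RNA. The –dox mice had neither dox nor a vector, and the MBNL1 and MBNL2 mice had both. No cohort with a control vector was sequenced. Repeat RNA, dox and AAV9 therefore cannot be told apart in this comparison. Of the 182 members, 181 passed the filter on low counts and were tested with edgeR's quasi-likelihood test across 19231 genes. In that fit –dox differed from the MBNL1 and MBNL2 cohorts together, in the direction of withdrawal, for 96 members, counting as called any gene with an adjusted p below 0.05 that changed by 1.5-fold or more. Of these, 28 were among the 54 higher members tested and 68 among the 127 lower members. Over all genes tested, 2.28% were called higher and 1.73% lower in this comparison. No member was called in the opposite direction: the count there was 0 at an unadjusted p below 0.05 with edgeR and 0 for calls with DESeq2. The median log2 difference was 0.78 for the higher and -0.67 for the lower members, against 0.02 for all genes tested. For the other withdrawal genes 180 of 446 tested (40.4%, against 53.04% of members) were called, with medians of 0.63 and -0.61.

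**Figure D2:**
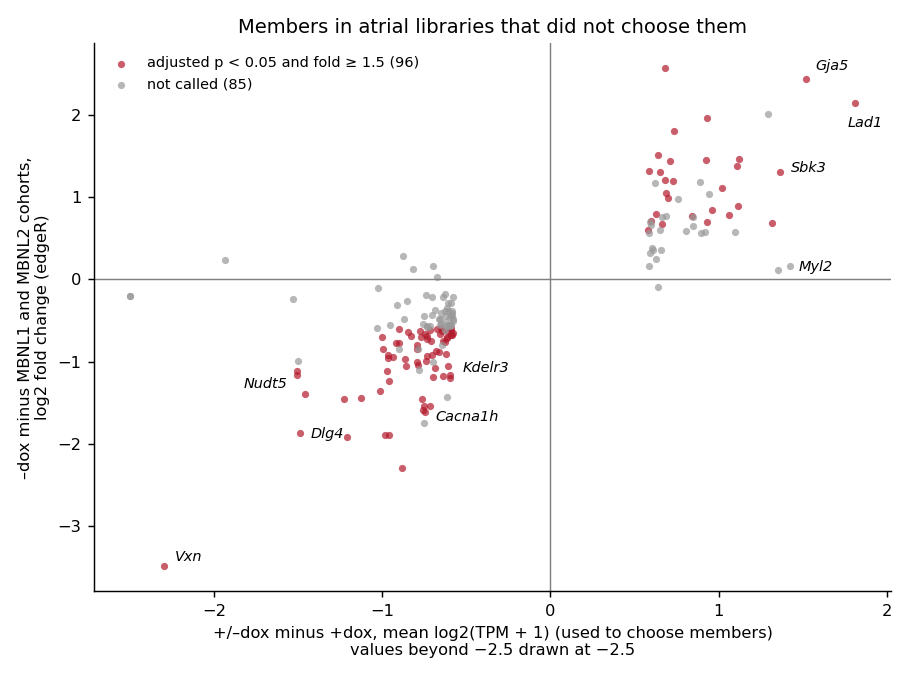
Each point is a member, with the +/–dox minus +dox change that chose it on the x axis and the edgeR log2 fold change of –dox over the MBNL1 and MBNL2 cohorts on the y axis, with x values beyond -2.5 drawn at -2.5; red points (96) were called, and grey points (85) were not. Points in the upper right and lower left moved the same way in both, which share no library.

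Against the MBNL1 cohort alone 70 members were called in the direction of withdrawal, 18 higher and 52 lower, where 1.15% and 1.18% of all genes tested were called in these directions. Against the MBNL2 cohort alone there were 105, of which 28 were higher and 77 lower, with 2.21% and 2.01% of all genes tested called. On the TPM scale the 3 –dox libraries lay above all 6 MBNL1 and MBNL2 libraries for 38 of the 55 higher members, as they did for 7.23% of the genes at 1 TPM or more. They lay below all 6 for 99 of the 127 lower members, and below them for 16.5% of those genes. The median gene moved by -0.06 from +dox to +/–dox on log2(TPM + 1) and by less than 0.01 on TMM-normalized counts. From +dox to MBNL1+MBNL2 it moved by 0.03 and -0.01 on these scales. On the latter scale 97 members also met the rule, 46 of the 55 higher but 51 of the 127 lower. Of these 97, 59 were called in the test on –dox, MBNL1 and MBNL2 atria. Falls named below that did not meet the rule on TMM-normalized counts include Nudt5, Wfdc1, Cda, Homer2, Popdc3, Agpat5, Arhgap1, Chid1, Kdelr3 and Isg15. Dag1, Lmcd1, Pdlim3, Gjd3, Agt, Ogdhl, Slc45a3, Ube2c, Phtf2, B4galt5, B4galt2, Mgat4b and Sec23b did not meet it either. Falls that met it include Vxn, Dlg4, Mlec, Anxa5, Galnt10, Pomgnt2, Sp3os, Scn4b and Irf7.

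Connexins and channel subunits were the list of cardiac genes with the most members. Of 36 genes on the list of ion channels and conduction genes, 33 reached 1 TPM, 10 met the withdrawal criteria and 5 were members: Gja5 and Gja1 were higher, and Scn4b, Cacna1h and Gjd3 lower, with withdrawal. Gja5 encodes connexin 40, the gap junction protein of atrial muscle and of the fast conduction system. Its atrial TPM was 8.16, 8.09 and 10.97 in the +dox libraries, 19.5, 28.6 and 37.8 in +/–dox and 45.4, 39.9 and 46.3 in –dox. It was 8.46, 6.83 and 9.15 with MBNL1, 6.78, 6.91 and 11.6 with MBNL2 and 7.07, 5.84 and 6.97 with both. No library of a vector cohort reached the lowest +/–dox library, and all 3 with both vectors lay below the +dox libraries. The log2 difference of –dox over the MBNL1 and MBNL2 cohorts was 2.44 ± 0.17 (SE, adjusted p = 8.97e-11, edgeR). The start of Gja5 is shown because it leads the members of the conduction list. The table of RefSeq promoters, of build GRCm38.p6 and running from 250 bases before to 50 after the start, places it on the plus strand at chr3:97032152-97032451.
Gja5: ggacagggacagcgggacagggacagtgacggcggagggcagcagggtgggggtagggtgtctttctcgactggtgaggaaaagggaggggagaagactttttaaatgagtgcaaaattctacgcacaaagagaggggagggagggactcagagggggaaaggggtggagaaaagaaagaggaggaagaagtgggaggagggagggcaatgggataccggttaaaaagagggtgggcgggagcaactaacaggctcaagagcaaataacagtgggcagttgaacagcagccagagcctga

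Gja1, connexin 43, the main gap junction protein of working heart muscle, was at 129.9, 135 and 133 TPM in +dox, 186, 212 and 212 in +/–dox and 157, 115 and 143 in MBNL1+MBNL2 atria. It was at 169, 168 and 200.1 in –dox atria, above all 6 libraries of the single vectors, which ran from 132 to 156 TPM. Its difference there had an adjusted p of 0.00966 (edgeR) but, at 0.36 ± 0.10 (SE) in log2, did not reach a fold change of 1.5. Gjd3, a connexin of low level, ran from 0.190 to 0.510 TPM in +/–dox and from 0.710 to 1.86 in +dox, and its difference of -1.44 ± 0.65 (SE) in log2 between –dox and the MBNL1 and MBNL2 cohorts had an adjusted p of 0.139 (edgeR). The connexins thus did not share a direction.

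Scn4b, the beta-4 subunit of voltage-gated sodium channels, was at 14.5, 16.3 and 12.6 TPM in +dox and 7.32, 7.37 and 5.57 in +/–dox atria, and at 14.7, 14.4 and 14.1 with both vectors. With –dox it was at 10.1, 7.56 and 6.65 TPM, below the 12.1 to 19.6 TPM of the MBNL1 and MBNL2 libraries, and the log2 difference was -0.85 ± 0.24 (SE, adjusted p = 0.0149, edgeR). This call was lost without –dox replicate 2 or 3, at log2 differences of -0.82 and -0.69. Cacna1h, the T-type calcium channel Cav3.2, was at 10.2, 12.1 and 8.15 TPM in +dox, 5.54, 6.37 and 4.84 in +/–dox and 5.15, 3.89 and 2.84 in –dox atria. The vector libraries, from 7.94 to 15.4 TPM, overlapped +dox and lay above every +/–dox and –dox library, and the log2 difference of –dox from MBNL1 and MBNL2 was -1.61 ± 0.34 (SE, adjusted p = 0.00195, edgeR). Kcnj14, an inward rectifier potassium channel that is not on the list and was chosen after its values were seen, ran from 0.310 to 0.550 TPM in +/–dox and 1.21 to 2.27 in +dox, with -1.89 ± 0.49 (SE) in the same test (adjusted p = 0.00916).

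**Figure D3:**
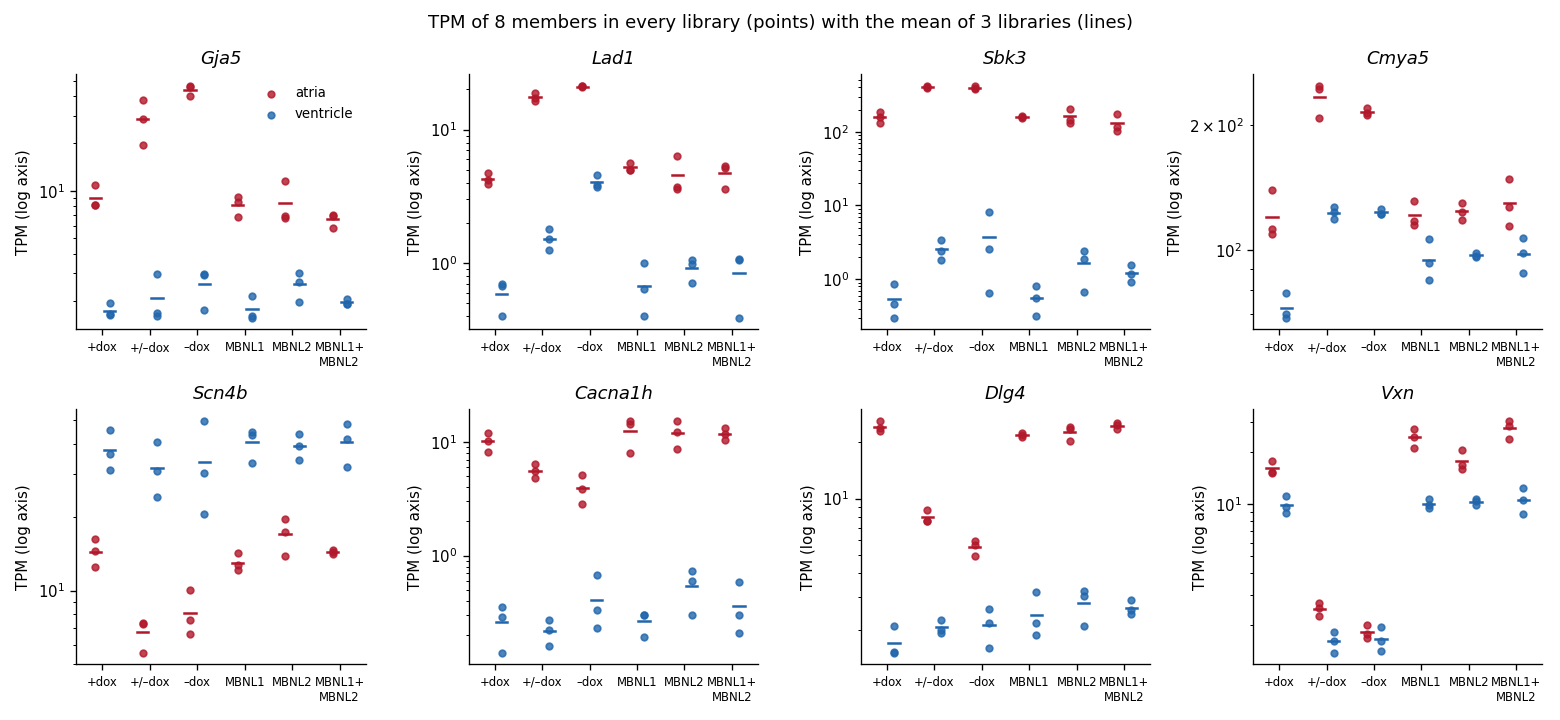
TPM on log axes for 8 members in the 3 atrial (red) and 3 ventricular (blue) libraries of each cohort, with lines for means. In the atria Gja5, Lad1, Sbk3 and Cmya5 were high in the +/–dox and –dox cohorts alone, Scn4b, Cacna1h, Dlg4 and Vxn were low there, and the 3 vector cohorts lay with +dox or on its far side.

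The largest rise belonged to Lad1, which encodes ladinin 1, an anchoring filament protein first described in basement membranes. It was at 4.17, 4.71 and 3.90 TPM in +dox, 16.3, 18.9 and 17.2 in +/–dox and 21.1, 20.8 and 21.2 in –dox atria. With MBNL1, MBNL2 or both it ran from 3.59 to 6.36 TPM, so that the 9 vector libraries and the 6 libraries without repeat RNA were far apart. The difference of –dox from MBNL1 and MBNL2 was 2.14 ± 0.20 (SE) in log2 (adjusted p = 3.36e-08, edgeR).

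Several higher members encode proteins of striated muscle, a grouping made after their values were seen. Sbk3 and its neighbour Sbk2 encode SH3 domain-binding kinases of the heart. Sbk3 was at 132, 158 and 183 TPM in +dox, 399, 417 and 396 in +/–dox, 396, 379 and 417 in –dox and 175, 102 and 115 in MBNL1+MBNL2 atria. The single vectors gave 133 to 206 TPM, with no overlap with –dox, and 1.31 ± 0.41 (SE) in log2 (adjusted p = 0.0294, edgeR), a call that was lost when any 1 of 8 of the 9 libraries was left out. Sbk2 ran from 203 to 235 TPM in +dox and from 364 to 408 in +/–dox, and its log2 difference in the test was 0.58 ± 0.17 (SE, adjusted p = 0.0165), under a 1.5-fold change. Cmya5, or myospryn, a large protein of the costamere that anchors signalling molecules, was at 109, 139 and 112 TPM in +dox and 249, 245 and 208 in +/–dox. It was at 212, 219.8 and 215 in –dox, 115 to 131 with a single vector and 148, 114 and 127 with both, and the log2 difference was 0.84 ± 0.10 (SE, adjusted p = 2.90e-07, edgeR). Tmod4, a tropomodulin that caps actin filaments, ran from 6.73 to 8.92 TPM in +dox and from 14.3 to 16.9 in +/–dox, and was not called in the test (0.57 ± 0.20, SE, adjusted p = 0.0547, edgeR).

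Other muscle genes fell with withdrawal. Popdc3, a cAMP-binding protein of the Popeye family, was at 23.6, 24.1 and 22.8 TPM in +dox, 14.4, 10.9 and 9.77 in +/–dox and 23.1, 22.6 and 19.9 with both vectors. It was at 9.80, 9.45 and 11.9 in –dox, and 18.7 to 22.1 with a single vector, a log2 difference of -0.96 ± 0.11 (SE, adjusted p = 6.23e-07, edgeR). Lmcd1, a LIM domain protein of the heart, fell from a mean of 32.02 to 17.2 TPM and was called at -0.84 ± 0.20 (SE, adjusted p = 0.00391). Pdlim3, an actinin-associated protein of the Z-disc, had means of 93.1 and 48.01 TPM and was not called (-0.31 ± 0.25, SE, adjusted p = 0.449). Dag1, which encodes dystroglycan and was the member of highest level among those that fell, was at 338, 355 and 296 TPM in +dox and 216, 214 and 230.4 in +/–dox. Its –dox libraries, at 208 to 232 TPM, lay below the 276 to 326 TPM of the single vectors, and at -0.48 ± 0.08 (SE) in log2 (adjusted p = 8.41e-05, edgeR) the difference was under 1.5-fold.

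Myl2 and Myl3, the ventricular regulatory and essential myosin light chains, are members by the rule, but their values were widely spread within cohorts. Myl2 was at 57.7, 46.8 and 73.01 TPM in +dox, 288, 76.5 and 178 in +/–dox and 68.5, 43.01 and 28.9 in MBNL1+MBNL2 atria. It was at 31.4, 28.7 and 581 in –dox, 436, 217 and 42.1 in MBNL1 and 274, 33.1 and 135 in MBNL2 atria, so that the highest library of each of these cohorts was several times its lowest. Myl3 varied alongside, at 106, 31.4 and 65.1 TPM in +/–dox and 12.2, 12.3 and 223 in –dox. In the test their log2 differences were 0.16 ± 0.69 and 0.11 ± 0.70 (SE, adjusted p = 0.914 and 0.946, edgeR). Without –dox replicate 3 they were -2.57 and -2.58. In the ventricle Myl2 ran from 14193 to 20122 TPM. The 9 ventricular markers, which include both genes and none of which was at 0 throughout, summed to 1116 to 1265 TPM in +dox atria, 1623 to 1955 in +/–dox, 1551 to 2738 in –dox, 1236 to 1866 in MBNL1, 1095 to 1496 in MBNL2 and 1122 to 1318 in MBNL1+MBNL2 atria. The part of ventricular tissue in these values was not tested. The 16 atrial markers summed to 44921 to 47944 TPM in +dox, 61393 to 66409 in +/–dox, 59846 to 63451 in –dox, 52717 to 57074 in MBNL1, 46592 to 55397 in MBNL2 and 49564 to 67252 in MBNL1+MBNL2 atria, so that the last overlapped +/–dox. Their part in the results was not tested, and fewer cells of a type and less RNA per cell cannot be told apart in such libraries.

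Secreted factors and receptors, again grouped after their values were seen, were found on both sides. Hamp encodes hepcidin, the hormone that lowers iron export, and was the member of highest level. It was at 288, 297 and 278 TPM in +dox, 524, 693 and 381 in +/–dox, 474, 725 and 318 in –dox and 227, 187 and 273 in MBNL1+MBNL2 atria. The –dox libraries overlapped the 202 to 394 TPM of the single vectors, and it was called at 0.77 ± 0.25 (SE, adjusted p = 0.0321, edgeR). Hamp2 is a near-identical copy whose reads can be split with Hamp, and was not called (0.57 ± 0.30, SE, adjusted p = 0.216). Rxfp1, the relaxin receptor, rose from 2.97, 3.64 and 5.24 TPM in +dox to 7.15, 6.87 and 11.3 in +/–dox and 11.7, 10.5 and 13.96 in –dox, with 3.47 to 6.05 TPM across the vector cohorts. Its –dox difference from MBNL1 and MBNL2 was 1.45 ± 0.22 (SE) in log2 (adjusted p = 4.34e-05, edgeR). Mdk, the growth factor midkine, ran from 10.4 to 21.9 TPM in +dox and from 26.7 to 32.3 in +/–dox, and was called at 0.69 ± 0.23 (SE, adjusted p = 0.0384), but not when any 1 of the 9 libraries other than MBNL2 replicate 3 was left out. The share of Mdk was 51.7% with MBNL1 and -11.7% with MBNL2.

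Grk5, a kinase that desensitizes adrenergic and other receptors, fell from 33.9, 36.3 and 31.2 TPM in +dox to 21.1, 21.3 and 19.6 in +/–dox and 15.6, 17.5 and 17.9 in –dox. It stayed at 29.1 to 36.8 TPM in the vector cohorts, above every library without repeat RNA, and the log2 difference was -0.87 ± 0.14 (SE, adjusted p = 4.93e-05, edgeR). Agt, angiotensinogen, the precursor of angiotensin, ran from 50.98 to 72.2 TPM in +dox, from 36.1 to 43.3 in +/–dox and from 64.3 to 83.95 with both vectors. It did not reach a 1.5-fold change in the test (-0.57 ± 0.16, SE, adjusted p = 0.0158, edgeR). Fgf16, a growth factor of the heart at a low level in the atria, was at 3.07, 2.40 and 1.74 TPM in +dox, 1.38, 0.710 and 0.910 in +/–dox and 0.970, 0.640 and 0.810 in –dox. It was called at -1.45 ± 0.21 (SE, adjusted p = 1.97e-05, edgeR).

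Among members of at least 5 TPM, predicted and clone names aside, the largest fall was that of Vxn, which encodes vexin, a protein described in neural development. It was at 15.3, 15.3 and 17.9 TPM in +dox, 2.52, 2.68 and 2.27 in +/–dox and 1.78, 1.68 and 2.00 in –dox atria. The MBNL1 libraries were at 24.7, 21.3 and 27.2, the MBNL2 libraries at 16.1, 16.9 and 20.7 and those with both at 28.3, 23.8 and 30.4 TPM, which is above +dox for MBNL1 and for both. At -3.49 ± 0.12 (SE) its log2 difference had the smallest adjusted p of the members (2.01e-19, edgeR). Dlg4, the scaffold protein PSD-95, was at 22.96, 25.99 and 23.7 TPM in +dox, 7.64, 7.64 and 8.67 in +/–dox, 5.64, 4.95 and 5.96 in –dox and 25.3, 23.4 and 24.8 with both vectors. It was called at -1.86 ± 0.11 (SE, adjusted p = 3.77e-13, edgeR). Nudt5, a hydrolase of ADP-ribose, was at 17.1, 17.7 and 19.1 TPM in +dox, 6.18, 5.42 and 6.09 in +/–dox, 6.12, 5.55 and 5.35 in –dox and 15.9, 17.4 and 14.6 with both vectors, and was called at -1.39 ± 0.09 (SE, adjusted p = 3.49e-12, edgeR). For all 3 of these genes the –dox libraries lay below every vector library. Wfdc1, a secreted protease inhibitor family member, fell from a mean of 26.4 to 8.77 TPM, and Sp3os, a transcript opposite Sp3, from 18.1 to 5.70, and both were called, at -1.17 and -1.11 in log2 (adjusted p = 6.65e-07 and 3.12e-04, edgeR).

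Others of the largest falls did not hold in the test. Ogdhl, related to a subunit of the oxoglutarate dehydrogenase complex, was at 23.97, 27.2 and 8.33 TPM in +dox and 7.79, 5.72 and 3.91 in +/–dox, but at -0.99 ± 0.39 (SE) in log2 it had an adjusted p of 0.0899 (edgeR). Slc45a3, a transporter, had -0.10 ± 0.29 (SE, adjusted p = 0.866). Cda, cytidine deaminase, was called at -1.46 ± 0.46 (SE, adjusted p = 0.0296), but not without –dox replicate 1 or 2, MBNL1 replicate 1 or 2, or MBNL2 replicate 1 or 2. The share of Cda was 50.9% with MBNL1 and -1.41% with MBNL2. Homer2, a synaptic and muscle scaffold protein, was called at -0.71 ± 0.12 (SE, adjusted p = 1.02e-04). Of the largest rises, Efnb3 (ephrin B3) was called at 0.68 ± 0.17, Tbc1d10c (a regulator of Rab GTPases) at 1.38 ± 0.24, Zbtb16 (a transcriptional repressor) at 0.79 ± 0.25 and Aldh3b3 (an aldehyde dehydrogenase) at 1.11 ± 0.18 (SE, adjusted p = 0.00744, 1.79e-04, 0.0306 and 8.61e-05, edgeR). Efnb3 was not called without –dox replicate 3, at 0.55, and Zbtb16 was not called without any 1 of 7 of the 9 libraries. For Efnb3 the single vectors differed, with a share of 57.3% for MBNL1 and -4.18% for MBNL2. Against MBNL1 alone Efnb3 was not called (0.28 ± 0.20, SE, adjusted p = 0.478, edgeR).

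Some lower members encode proteins of the secretory pathway or of glycosylation. They were picked after the values were seen, from no fixed list and with no test of the theme. Mlec, Galnt10 and Pomgnt2 also met the rule on TMM-normalized counts, and the others named here did not. Mlec encodes malectin, which binds N-glycans in the endoplasmic reticulum (ER). It was at 108, 116 and 105 TPM in +dox, 63.96, 61.2 and 63.3 in +/–dox, 60.9, 59.2 and 58.9 in –dox and 104, 118 and 117 with both vectors, and was called at -0.80 ± 0.07 (SE, adjusted p = 8.84e-10, edgeR). Galnt10, which starts O-glycosylation in the Golgi, was at 16.04, 16.4 and 11.7 in +dox, 7.34, 6.53 and 6.29 in +/–dox and 11.7, 14.2 and 14.7 with both vectors, and was called at -1.35 ± 0.15 (SE, adjusted p = 3.03e-07). The galactosyltransferases B4galt5 and B4galt2 were called at -0.64 and -0.71 in log2, and Pomgnt2, which extends O-mannosyl glycans of dystroglycan, at -0.60 (adjusted p = 3.20e-06, 1.64e-04 and 3.62e-05, edgeR). Mgat4b, an N-glycan branching enzyme, and Sec23b, a COPII coat subunit, had -0.56 and -0.39 (adjusted p = 5.51e-07 and 0.00140), both under a 1.5-fold change. Chid1, a protein with a chitinase-like domain, was called at -0.68 ± 0.07 (SE, adjusted p = 1.33e-07).

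Kdelr3, a receptor that returns ER proteins from the Golgi, was among the members furthest from restoration, with a share of -74.4%. It was at 19.6, 19.7 and 21.1 TPM in +dox, 11.9, 10.7 and 16.7 in +/–dox and 13.4, 11.6 and 14.6 in –dox. The vector libraries were all above +dox, from 25.6 to 30.4 TPM, and the log2 difference of –dox from MBNL1 and MBNL2 was -1.06 ± 0.13 (SE, adjusted p = 8.37e-07, edgeR). Further genes were among the 10 members with the smallest adjusted p in that test. Anxa5, annexin A5, a phosphatidylserine-binding protein, was at 107, 114 and 124 TPM in +dox, 59.7, 58.7 and 70.1 in +/–dox and 111, 116 and 119 with both vectors, and was called at -0.97 ± 0.07 (SE, adjusted p = 4.31e-11). Agpat5, an acyltransferase of phospholipid synthesis, was called at -0.94 ± 0.08 (SE, adjusted p = 1.94e-09), and Arhgap1, a GTPase-activating protein, at -0.63 ± 0.06 (SE, adjusted p = 2.20e-08, edgeR).

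Of 28 interferon-induced genes of the list at 1 TPM or more, 5 met the withdrawal criteria and 2 were members, Irf7 and Isg15. Irf7 is a transcription factor that amplifies interferon production, and Isg15 is a ubiquitin-like protein induced by interferon. Their promoters are shown because the genes moved together, with any match to GAAA, any 2 bases (NN) and a further GAAA, the core of an interferon-stimulated response element, in capitals. Overlapping matches on both strands were counted, and 3.44% of the 32851 RefSeq promoter sequences of this length hold a match. Of the 146 promoter sequences found for 113 members, 2 do, those of Isg15 and Sec23b. The Isg15 window, on the minus strand at chr4:156200769-156201068, holds 3 overlapping matches, and the Irf7 window, on the minus strand at chr7:141266375-141266674, holds none (GRCm38.p6).
Isg15: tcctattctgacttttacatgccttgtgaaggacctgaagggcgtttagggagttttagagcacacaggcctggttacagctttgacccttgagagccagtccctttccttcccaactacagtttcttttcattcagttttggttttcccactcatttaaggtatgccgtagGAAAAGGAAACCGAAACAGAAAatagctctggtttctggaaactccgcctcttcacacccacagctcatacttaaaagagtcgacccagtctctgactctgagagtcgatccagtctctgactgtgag
Irf7: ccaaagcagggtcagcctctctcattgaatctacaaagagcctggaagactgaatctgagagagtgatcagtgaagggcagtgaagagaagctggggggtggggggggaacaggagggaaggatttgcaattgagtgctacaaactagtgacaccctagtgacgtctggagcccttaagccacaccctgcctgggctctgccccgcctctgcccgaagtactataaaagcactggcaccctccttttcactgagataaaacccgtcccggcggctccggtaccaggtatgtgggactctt

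Irf7 was at 8.53, 5.53 and 9.97 TPM in +dox, 3.07, 2.94 and 4.76 in +/–dox and 2.45, 2.86 and 3.96 in –dox atria, and at 5.05, 7.17 and 16.1 with MBNL1, 19.3, 15.04 and 8.11 with MBNL2 and 8.52, 6.63 and 10.1 with both. Isg15 was at 10.5, 6.74 and 9.05 TPM in +dox, 4.95, 3.11 and 6.69 in +/–dox, 3.46, 4.29 and 4.62 in –dox, 6.42, 8.08 and 14.2 with MBNL1, 20.9, 16.4 and 8.96 with MBNL2 and 7.42, 7.52 and 11.04 with both. The highest atrial value of both genes was that of MBNL2 replicate 1, followed by MBNL1 replicate 3 for Irf7 and MBNL2 replicate 2 for Isg15, and all –dox libraries lay below all vector libraries. The log2 differences of –dox from MBNL1 and MBNL2 were -1.89 ± 0.47 and -1.54 ± 0.38 (SE, adjusted p = 0.00648 and 0.00518, edgeR). Against MBNL1 alone they had adjusted p-values of 0.0526 and 0.0775.

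On the remaining lists the members were few. Tagln, a smooth muscle actin-binding protein, was 1 of 12 smooth muscle markers and the 1 that met the withdrawal criteria, at 43.3, 38.9 and 51.04 TPM in +dox and 22.6, 25.5 and 33.4 in +/–dox, and was not called in the test (-1.004 ± 0.36, SE, adjusted p = 0.0615, edgeR). The 12 markers summed to 777 to 899 TPM in +dox and 924 to 1166 in +/–dox atria, and their part in the fall of Tagln was not tested. Krt18, an epithelial and epicardial keratin, and Ube2c, a ubiquitin-conjugating enzyme of mitosis, were at or under 6.90 and 3.13 TPM in all cohort means and were not called (1.04 ± 0.41 and -0.85 ± 0.53, SE, adjusted p = 0.0910 and 0.314). No member was on the lists of calcium handling (22 genes at 1 TPM, 4 with the withdrawal change), natriuretic and fetal genes (13 and 5), creatine kinase and energy (35 and 5), antigen presentation (17 and 5) or endothelium (18 and 0).

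Members lay close together at 2 places, looked for after the values were seen as at least 3 members with gaps of at most 200 kb. On chromosome 4, from 41638144 to 41769474 (131 kb, GRCm38, GENCODE M21), lie Enho, which encodes the peptide hormone adropin, Il11ra1, a receptor of interleukin 11, Rpp25l and Dctn3, a dynactin subunit, and all 4 were lower in +/–dox. Their values did not follow the cohorts. Enho was at 24.4, 23.2 and 25.99 TPM in +dox, 22.2, 9.80 and 9.81 in +/–dox and 22.04, 16.2 and 10.2 in –dox atria, so that +/–dox replicates 2 and 3 and –dox replicate 3 lay below the other libraries of their own cohorts. Dctn3 was at 31.2, 33.4 and 31.5 TPM in +dox, 28.7, 14.4 and 15.4 in +/–dox and 26.7, 25.5 and 14.6 in –dox, with the same 3 libraries low.

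Averaged over the 4 genes as a percentage of the +dox mean of the tissue, those 3 atrial libraries were at 44.2%, 45.2% and 47.9%, while +/–dox replicate 1 was at 88.99% and –dox replicates 1 and 2 at 86.2% and 82.5%. The ventricular libraries with the same numbers were at 50.7%, 52.97% and 49.7%, and +/–dox replicate 1 there was at 107.6%. Over all 15 others, the ventricular libraries ran from 88.95% to 127.6%, and the atrial ones from 82.4% to 106.99%. None of the 4 genes was called between –dox and the MBNL1 and MBNL2 atria, with log2 differences from -0.48 for Enho to -0.21 for Il11ra1 (adjusted p = 0.271 and 0.584, edgeR). Of their neighbours, Ccl27a, whose gene span overlaps that of Il11ra1 on the other strand, changed by -1.03 from +dox to +/–dox in the atria. Cntfr, which lies between Enho and Il11ra1, changed by 0.31, and Galt by -0.56. Cntfr was at 57.8, 25.9 and 24.4 TPM in +/–dox and 60.3, 66.01 and 24.9 in –dox atria. Galt was at 34.5, 16.7 and 15.9 TPM in +/–dox and 32.01, 30.6 and 17.99 in –dox. For Ccl27a, Cntfr and Galt the same atrial libraries were thus the low ones of their cohorts.

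**Figure D4:**
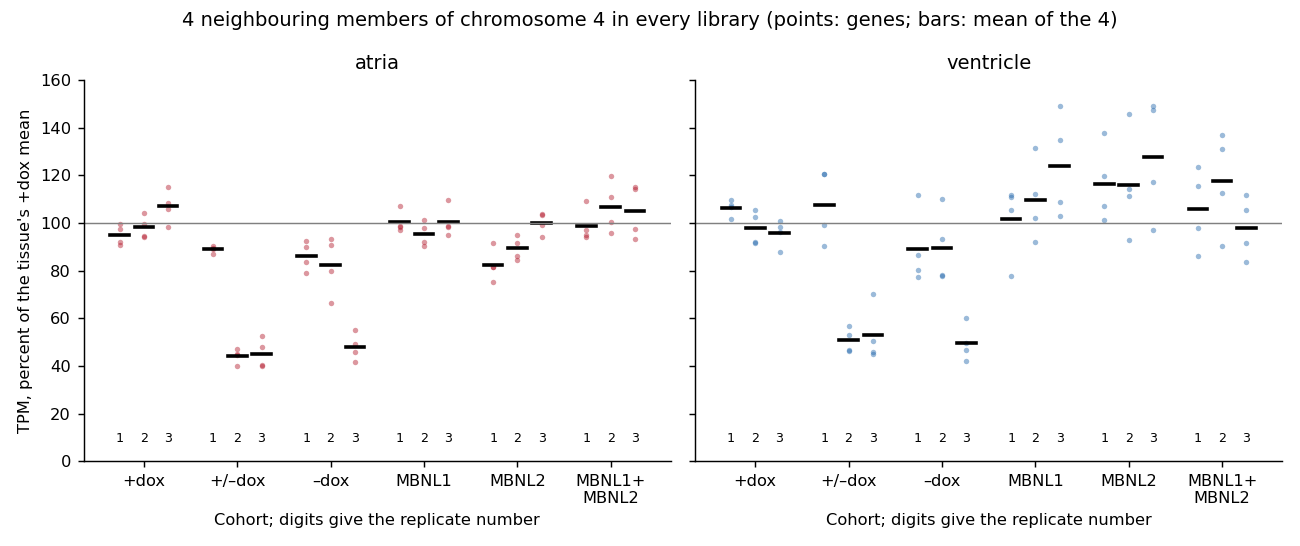
Points give the TPM of Enho, Il11ra1, Rpp25l and Dctn3 as a percentage of the +dox mean of the same tissue, bars give the mean of the 4 genes, and each column is 1 library with its replicate number at the bottom. In both tissues the means of +/–dox replicates 2 and 3 and –dox replicate 3 lie between 44.2% and 52.97%, and those of the other libraries at 82.4% or above.

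The other place, on chromosome 19 from 3958645 to 4191284, holds Aldh3b3, Gm49405, Doc2g and Tbc1d10c, all higher in +/–dox. The exons of Gm49405 overlap those of Doc2g on the same strand, so that these 2 share sequence. Doc2g, of a family of calcium sensors, was at 197, 201 and 187 TPM in +dox, 381, 369 and 356 in +/–dox and 207, 201 and 232 with both vectors. Of all members, 70 have an exon overlapped by another gene, 13 of them on the same strand, and 9 are processed pseudogenes. Gm13370 and Gm10240 had equal TPM in all 36 libraries and the largest fall of the set, with 60.04 to 111 TPM in +dox and 0, 0 and 4.96 in +/–dox, where 2 libraries are listed at 0. They were at 51.3 to 73.4 TPM in –dox atria and were not called there (-0.20 ± 0.72, SE, adjusted p = 0.898, edgeR).

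The –dox cohort was not at the withdrawal level for every member. Its share was under 50% for 7 higher and 11 lower members, between 50% and 150% for 45 and 114, and over 150% for 3 and 2. Stum was at 6.25, 9.09 and 9.20 TPM in +dox, 14.1, 13.4 and 12.1 in +/–dox and 7.98, 5.92 and 8.20 in –dox atria, and was the lone higher member with a lower fitted level in –dox than in MBNL1 and MBNL2 (-0.09 ± 0.19, SE, adjusted p = 0.809, edgeR). Tent5b, a poly(A) polymerase of the TENT5 family, was at 6.71, 6.25 and 4.84 TPM in +/–dox and 10.9, 11.8 and 9.14 in –dox, with 0.02 ± 0.40 (SE, adjusted p = 0.983). In the opposite sense Gja5, at 45.4, 39.9 and 46.3 TPM, was higher in all –dox libraries than in any +/–dox library.

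In the ventricle a part of the members was called with withdrawal. The ventricles came from the same mice as the atria that chose the members, so that these comparisons are not independent of the choice. Where the MBNL1+MBNL2 ventricles are compared, library set, sex and the vectors again cannot be told apart. Between +/–dox and +dox ventricles 52 members were called in the atrial direction, 13 of 54 higher and 39 of 127 lower, against 3.09% and 3.52% of all genes tested. For the other withdrawal genes 197 of 446 were called (44.2%, against 28.7% of members). Between –dox and +dox 60 members were called, 17 higher and 43 lower, with 3.47% and 4.13% of all genes. The MBNL1+MBNL2 ventricles differed from +dox for 7 members, 1 higher and 6 lower (1.04% and 1.61% of all genes), and for 108 of the other withdrawal genes, which is 3.87% and 24.2% of those tested. The 7 were Sbk2, Tmem97, Ube2c, Igfbpl1, Ccne1, Wfdc1 and Sp3os, and without ventricular +dox replicate 3 or MBNL1+MBNL2 replicate 3 there were 11, and 4 without MBNL1+MBNL2 replicate 1. All fits without the ventricular MBNL1 library of replicate 1 gave 57, 68 and 9 in these 3 comparisons. The shares of all genes called were not counted in these fits, so the rise is not shown to be particular to the members.

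Of the 52 members called between +/–dox and +dox ventricles, 10 had a ventricular share of the combined vectors under 15%, 27 lay between 15% and 50%, and 15 at 50% or more, with a median of 39.2%. Vxn was at 9.71, 8.95 and 11.2 TPM in +dox, 1.82, 1.39 and 1.63 in +/–dox and 8.79, 10.6 and 12.4 in MBNL1+MBNL2 ventricles, where the last overlapped +dox. Nudt5 ran from 14.03 to 16.04 TPM in +dox, 4.49 to 6.68 in +/–dox and 11.2 to 14.8 in MBNL1+MBNL2 ventricles. Anxa5 ran from 87.7 to 99.7, 51.97 to 59.1 and 79.7 to 101 TPM in these cohorts, with +/–dox apart from the rest. Sbk2, by contrast, was at 2.05, 2.73 and 2.23 TPM in +dox, 13.3, 9.46 and 10.4 in +/–dox and 6.47, 3.88 and 4.39 in MBNL1+MBNL2 ventricles, and was higher than +dox with both vectors by 1.05 ± 0.22 in log2 (SE, adjusted p = 0.00293, edgeR). Between +/–dox and MBNL1+MBNL2 ventricles 17 members were called in the direction of withdrawal, 7 higher and 10 lower, against 0.286% and 0.244% of all genes tested. They include Gja1 (0.63 ± 0.11, SE, adjusted p = 0.00226), Vxn (-2.64 ± 0.13, adjusted p = 1.70e-15) and Nudt5 (-1.23 ± 0.10, adjusted p = 3.12e-09). This count was 29 without MBNL1+MBNL2 replicate 1, 7 without replicate 2, 8 without replicate 3 and 11 without +/–dox replicate 3. Gm13370 and Gm10240, with equal TPM in all 36 libraries, each count among the 17, among the 52 and among the 10 with a share under 15%. These counts thus hold 1 signal as 2 genes.

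Whether the difference of –dox from the MBNL1 and MBNL2 cohorts was itself of a different size in the tissues was tested as an interaction, a comparison added after the data were seen. It was called for 8 members with a larger difference in the atria, 1 higher (Gja5) and 7 lower (Scube2, Fgf16, Agpat5, Popdc3, Galnt10, Dlg4 and Vxn), where 0.255% and 0.135% of all genes were called in these directions. It was called in the opposite sense for Igfbpl1, an insulin-like growth factor binding protein-like factor. Gja5 differed by 2.05 ± 0.26 (SE) in log2 between the tissues (adjusted p = 5.83e-05), and its ventricular TPM ran from 1.57 to 3.01 over all cohorts. Dlg4 differed by -1.78 ± 0.15 (SE, adjusted p = 1.48e-08, edgeR), with ventricular values from 1.51 to 3.20 TPM. For Igfbpl1 the ventricular change was the larger one, from 3.13, 3.90 and 3.60 TPM in +dox to 0.340, 0.260 and 0.420 in +/–dox and 1.33, 1.63 and 2.01 with both vectors, and the interaction was 1.78 ± 0.30 (SE, adjusted p = 0.00272). Without ventricular –dox replicate 2 the count in the atrial sense was 5. With each cohort and replicate number taken as 1 animal, as a block across tissues, all 9 calls were kept and the count in the atrial sense was 12. The shares of all genes called higher and lower also rose, to 0.65% and 0.244%. Stum, a higher member, was then called in the opposite sense as well, at -0.91 in log2 (adjusted p = 0.0188, edgeR).

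The limit of 15% cuts through a continuous range. Among genes of at least 5 TPM, those just inside it were Gm10435, Phtf2 and Arhgap1, with shares of 14.8%, 14.5% and 14.4%, and just outside Nt5dc2, the L-type calcium channel gene Cacna1d and Ubtd1, with 15.02%, 15.04% and 15.08%. Of other genes that the study names for expression, the pacemaker channel Hcn4 had a share of 37.1%, the ryanodine receptor Ryr2 27.4%, the mitochondrial creatine kinase Ckmt2 97.5% and Cdnf 68.2%, while Asph and Kcna4 did not meet the withdrawal criteria in the atria. By RT-qPCR of atria, the study had already found that turning off the repeat RNA did not fully rescue Gja5 and Hcn4. It also reports them as not rescued in all MBNL cohorts, by a measure unlike the share of TPM used here. From its RNA-Seq data the study also lists atrial Gja5 as higher in –dox and +/–dox than in +dox. It gives no value there for the MBNL cohorts.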

How the data were processed

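RNA was measured in atria and left ventricle of 6 cohorts of 3 mice. The authors made stranded poly(A) libraries, used STAR 2.7.10b for alignment (mm10) and RSEM 1.3.1 for estimates over the GENCODE M25 genes. The deposited expected counts are RSEM estimates per gene, with no normalization for library size, and the deposited TPM values are the same estimates scaled for transcript length to a fixed sum per library. The strand setting of RSEM was not given in the sources used here. Members, lists and comparisons were chosen with earlier results of these data known. Members were found on log2(TPM + 1), with a pseudocount of 1. Calls rest on rounded expected counts, fitted with edgeR 4.0.16 (limma 3.58.1, R 4.3.3) over all 36 libraries with 12 group means, TMM normalization, filterByExpr and robust quasi-likelihood tests, with Benjamini-Hochberg adjustment over the genes of a comparison. DESeq2 1.42.0 was an alternative. Calls needed an adjusted p below 0.05 and a change of 1.5-fold or more. Named genes were the members on the lists, the 12 largest rises and 12 largest falls at 5 TPM or more without predicted or clone names, the 10 with the smallest adjusted p between –dox and the MBNL1 and MBNL2 atria, those next to the share limit and those the study names. Others were chosen after their values were seen, and 1 gene named by the rule is not reported here. For gene positions the GENCODE M21 annotation of GRCm38 was used (181 of the 182 members matched), and promoter sequences from RefSeq. Figures were drawn with matplotlib 3.10.9.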

Additional observations from a re-analysis of the deposited data

Results flagged for a closer look

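For 9 members the log2 difference of –dox from the MBNL1 and MBNL2 cohorts was of a different size in atria and ventricle (interaction in edgeR, adjusted p below 0.05, a comparison added after the data were seen). The atrial minus ventricular value was 2.05 for Gja5, -1.78 for Dlg4, -1.01 for Vxn, -0.75 for Agpat5, -1.07 for Galnt10, -0.79 for Popdc3, -1.24 for Scube2 and -1.19 for Fgf16, and 1.78 for Igfbpl1. The adjusted p-values (edgeR) ran from 1.48e-08 for Dlg4 to 0.0363 for Fgf16. In the atria alone Scube2 was at 0.560, 0.710 and 0.910 TPM with –dox and 1.54 to 2.71 TPM with a single vector, and in the ventricle at 5.12, 6.12 and 6.03 and 6.24 to 8.65 TPM.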

How the results depend on the processing

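The number of members was 284 with a pseudocount of 0.1 (179 shared with the 182), 87 for a share under 0, 136 at 5 TPM or more, 267 for a share under 0.25, 142 on TMM-normalized CPM (97 shared), 261 with library set 56 alone (91 shared) and 162 to 244 with 1 library left out. Members that also met the rule on CPM gave 59 calls in place of 96 between –dox and the MBNL1 and MBNL2 atria, by construction fewer genes. With no fold change threshold, where the shares of all genes called were not counted, the counts were 86 for ventricular +/–dox against +dox, 18 for MBNL1+MBNL2 against +dox and 28 for MBNL1+MBNL2 against +/–dox. The last was 29 with library set as a covariate and 9 with only the groups compared, and DESeq2 gave 16 for the interaction (the cause was not tested). With 1 library of the groups compared left out, the counts ran from 76 to 103 for –dox against MBNL1 and MBNL2 atria, 52 to 69 against MBNL1, 84 to 102 against MBNL2, 43 to 55 for ventricular +/–dox and 47 to 63 for –dox against +dox, 4 to 11 for MBNL1+MBNL2 against +dox, 7 to 29 against +/–dox and 5 to 9 for the interaction. With a replicate block within each tissue, where same-numbered libraries of different cohorts correlated at -0.15 to 0.29 and so are not shown to be paired, –dox against MBNL1 and MBNL2 atria gave 100 in place of 96, and the other 7 counts of calls stayed within 1.5 times. Across tissues, libraries of 1 cohort and number correlated at 0.04 to 0.26 (18 of 18 above 0, 11 above 0.1), against a median of -0.08 for other numbers of the cohort. A block on these pairs, chosen after seeing the data, gave 12 in place of 8 for the interaction. With it 0.65% and 0.244% of all genes were called higher and lower, against 0.255% and 0.135% without it. The difference of Myl2 between –dox and MBNL1 and MBNL2 atria reversed to -0.23 with library set as a covariate, and to -0.09, -0.07 and -2.57 without MBNL1 replicate 3, MBNL2 replicate 2 and –dox replicate 3; that of Myl3 to -0.29, -0.15, -0.13 and -2.58. Without 1 library at a time they ran from -2.57 to 0.68 and from -2.58 to 0.62. No other named member changed direction in that comparison under any alternative run. At 3 libraries a group, a gene that was not called is not shown to be restored.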
